A study of Mus musculus with 6 samples.

Results

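The comparison is the first step of CD8 T cell maturation sampled here, from double-positive (DP) thymocytes to the CD4intCD8+ intermediate. All 4 arrays titled with those stages were used, 2 per stage, of 6 arrays in the series, and every gene on them was compared. Both populations came from H-2b mice without Rag2 in which both alleles hold a transgene for the N15 T cell receptor. Thymocytes of 6 such mice, 5 to 6 weeks old and matched for age and sex, were stained for CD4 and CD8 and sorted by flow cytometry for 2 experiments. DP cells carry both coreceptors, and CD4intCD8+ cells keep CD8 with an intermediate amount of CD4. The replicate number in the array title was used to pair 1 array of each stage. The pairs are described by their own differences, and the main test does not use the pairing. The labels do not tie an array to single animals, so the spread behind each p-value is that between arrays and may be technical.

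Double-positive thymocytes have assembled the alpha and beta chains of the T cell receptor and await selection on peptides shown by major histocompatibility complex (MHC) molecules of the thymic cortex. Cells with a receptor of suitable affinity survive, stop recombining receptor genes, lower a coreceptor and move to the medulla, and the rest die. The N15 receptor recognises a viral peptide on the class I molecule H-2Kb, so that in H-2b mice selected cells become CD8 T cells. Because Rag2 is missing, endogenous receptor genes are not assembled and nearly every thymocyte carries the transgenic receptor. The model therefore shows how 1 receptor specificity matures, and its DP cells express a complete receptor from the transgene, which differs from the timing in normal mice.

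The arrays were alike in scale, with median probe intensities from 24.9 to 25.7 and 2.78% to 4.33% of values below 0. The ratio of actin signal at the 3' end to that at the 5' end, a sign of RNA quality that grows as RNA is degraded, was 1.98 and 2.14 in DP and 2.37 and 3.47 in CD4intCD8+, so that it moved with the stage and was highest on CD4intCD8+ replicate 2. Of the sorted coreceptors, Cd4 measured 351 and 515 in DP and -33.0 and 11.8 in CD4intCD8+, so that the transcript was at or near background in cells sorted for intermediate CD4 protein. Cd8a was bright in both stages, with 3153 and 3566 in DP and 2361 and 1481 in CD4intCD8+, and fell by 0.84 ± 0.18. Cd8a missed the threshold without DP replicate 1 or 2, without the variance trend or with the actin covariate (adjusted p from 0.0643 to 0.308). Cd3d, a chain of the receptor complex, was 3882 and 4072 in DP and 3572 and 3120.2 in CD4intCD8+, and Ptprc, the leukocyte marker CD45, was 3564 and 3050.4 in DP and 3032 and 2833 in CD4intCD8+. Rag2 intensity, 137 and 193 in DP and 14.8 and 30.1 in CD4intCD8+, does not check the genotype, since the labels do not say which part of the gene is deleted or where the probe lies. In RNA from sorted populations and on arrays alike in scale, fewer cells of a type and less RNA per cell cannot be told apart.

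Expression shifted in both directions at this step. Of 10916 genes tested, 749 were higher and 528 lower in CD4intCD8+ at a limma adjusted p under 0.05, here called changed, which is 11.7% of the genes (6.86% higher and 4.84% lower). Most changes were modest: the median size among called genes was 0.76 on the log2 scale, 215 rises and 86 falls were at least 2-fold (1.97% and 0.788% of the genes), and 16 had a size of 2 log2 units or more. The median change of all genes was 0.01. Changes are differences of log2(intensity + 5.84), which understates the change of dim genes, and folds are on that scale. All called genes had CD4intCD8+ arrays that did not overlap with the DP arrays, but so did 58.7% of all genes tested.

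**Figure D1:**
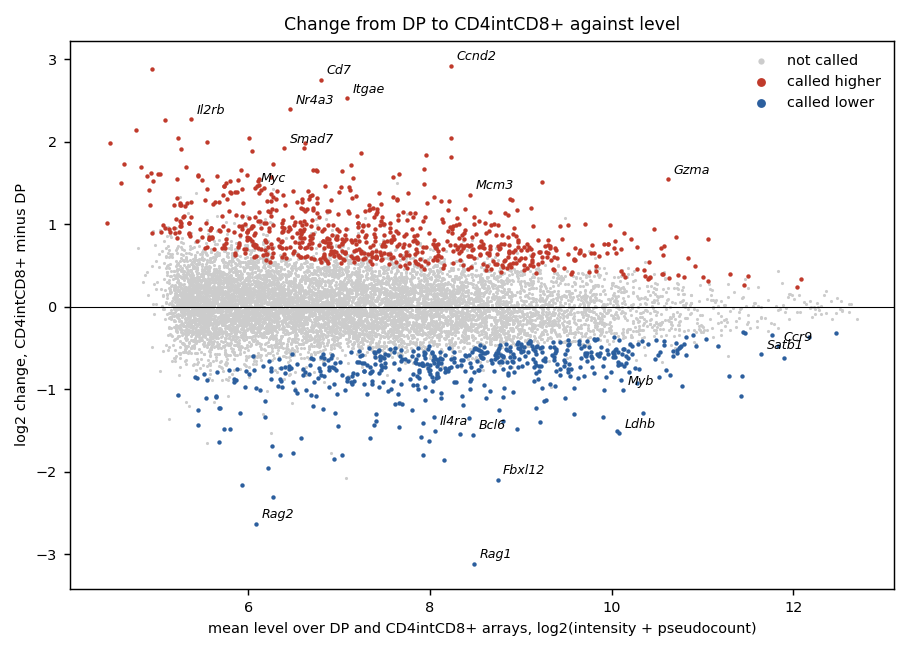
Log2 change from DP to CD4intCD8+ against the mean log2 level over the 4 arrays, 1 point per gene tested, with genes called higher in red and lower in blue. The 749 called rises and 528 called falls spread over the range of levels, and Rag1 lies lowest at -3.11 and Ccnd2 highest at 2.92.

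The pairs of arrays gave similar pictures. Of all genes tested, 72.5% moved the same way in the replicate 1 pair and in the replicate 2 pair. Each of the 1277 called genes did, as genes whose stages do not overlap must. Across genes, the changes in the 2 pairs had a Pearson correlation of 0.69 over all genes tested and 0.94 over the called genes, which were chosen on these arrays. Genes are not independent replicates. The median size of a called change was 0.69 in the replicate 1 pair and 0.83 in the replicate 2 pair. With the replicate number as a block, 2562 genes were called (23.5%), including all 1277. Block counts of gene lists below read against the 13.3% of all genes called higher and 10.1% called lower in that fit. Leaving out 1 array changed the count to 317 (DP replicate 1), 187 (DP replicate 2), 1399 (CD4intCD8+ replicate 1) or 473 (CD4intCD8+ replicate 2). Adding the actin ratio as a covariate left 407 calls (3.73%), of which 310 were among the 1277. Counts for gene lists below read against the shares of all genes called higher and lower, which were 6.86% and 4.84%, 2.55% and 1.79% without CD4intCD8+ replicate 2, and 2.18% and 1.55% under the actin covariate.

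**Figure D2:**
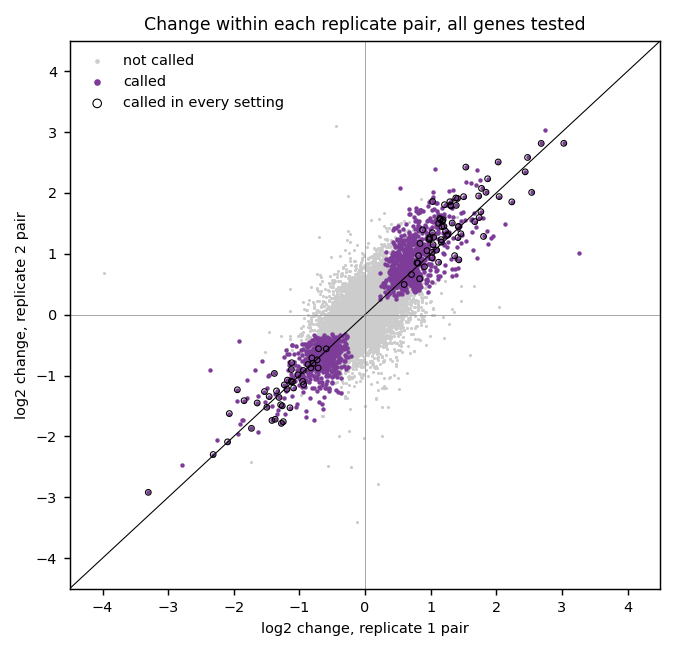
Log2 change of each gene tested in the replicate 1 pair (x axis) and the replicate 2 pair (y axis), with called genes in purple and the 106 genes called under every setting ringed. The line marks equal changes, and called genes lie in the quadrants where both pairs share a direction, as the lack of overlap between their stages requires.

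A smaller set was called whatever the setting. In the fit as described and in each of 14 other settings that tested them, 106 genes (0.971% of those tested) were called with 1 direction, 65 higher and 41 lower, and 86 of them changed at least 2-fold. Leaving out each of the 4 arrays in turn kept the call of 136 genes. Genes of the double-positive stage held 6 of the 106, DNA replication genes 5, and 61 were in none of the gene lists used here. Few of the called genes were called again at the next step, whose share of all genes called is not given here. The median change from CD4intCD8+ to CD8 single-positive cells was 0.09 for the 749 rises, of which 6 rose again, and -0.07 for the 528 falls, of which 2 fell again. Among genes changed at least 2-fold these medians were 0.17 and -0.28. An absent call at that step does not show an unchanged level. Ccnd2 changed by a further 1.09 and Il2rb by 1.04 without a call (limma adjusted p = 0.136 for both), while Nr4a3 changed by -0.05. These 2 steps share the CD4intCD8+ arrays, so that their changes are not independent.

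The largest fall among the 10916 genes tested was that of the recombinase, while Cd4, left out by its mean level over 6 arrays, fell further in the fit of all genes. Rag1, which with Rag2 cuts DNA at receptor gene segments, was measured at 1046 and 1054 on the DP arrays and 101 and 134 on the CD4intCD8+ arrays. The DP arrays lay close to each other and far above both CD4intCD8+ arrays, and the log2 change was -3.11 ± 0.23 (SE, limma adjusted p = 0.000659), an 8.64-fold lower level. Rag2 was 137 and 193 on the DP arrays and 14.8 and 30.1 on the CD4intCD8+ arrays, also without overlap, a change of -2.63 ± 0.47 (adjusted p = 0.0114). Dntt, which encodes the enzyme that adds untemplated bases at receptor joints, was 2216 and 2657 on the DP arrays and 1108 and 1409.8 on the CD4intCD8+ arrays. It remained at a mean of 1259 in CD4intCD8+, a change of -0.95 ± 0.20 (adjusted p = 0.0185). Xrcc5, which encodes the Ku80 subunit of DNA end joining, went the other way, from 58.5 to 123 (0.99 ± 0.18, adjusted p = 0.0122). Of 10 genes of recombination and end joining tested, 3 fell and 1 rose (median -0.14). Rag2, Dntt and Xrcc5 lost significance without DP replicate 1 or 2 (adjusted p from 0.0617 to 0.119), as did Xrcc5 without CD4intCD8+ replicate 2 or with the actin covariate (adjusted p from 0.0569 to 0.171). Dntt fell short of the threshold without the variance trend (adjusted p = 0.0536).

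Genes that characterise the double-positive stage fell together. Of 19 tested, 13 were lower and 0 higher, with a median change of -0.74 beside 0.01 for all genes and 4.84% of genes called lower. Ets2, a transcription factor of the Ets family, was 1691 and 1915 on the DP arrays and 596 and 663 on the CD4intCD8+ arrays, a 2.85-fold fall (-1.51 ± 0.11, adjusted p = 0.000672). Bcl6, a transcriptional repressor, was 606 and 601 on the DP arrays and 189.9 and 216 on the CD4intCD8+ arrays, with neither stage's arrays overlapping the other's (-1.55 ± 0.14, adjusted p = 0.000945). Gtf2h4, a subunit of the general transcription factor TFIIH, fell by 1.38 ± 0.17, and Rmnd5a, a ubiquitin ligase subunit named after its values were seen, by 0.93 ± 0.10. Satb1, a chromatin organiser of thymocytes, fell from 3918 to 2624 (-0.58 ± 0.08, adjusted p = 0.00547), and a second gene known for tuning receptor signals in selection, Themis, fell from 1571 to 941. Of the 13 calls, those kept numbered 7 without DP replicate 1, 7 without DP replicate 2, 11 without CD4intCD8+ replicate 1 and 12 without CD4intCD8+ replicate 2, and 8 genes were called lower under the actin covariate (1.55% of all genes). The list's name reflects what is known of the stage, and its members were chosen with earlier results of these data known.

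Other large falls were of genes with no stage-specific role in the lists. Fbxl12, an F-box protein that selects substrates for a ubiquitin ligase, was 836 and 927 on the DP arrays and 191 and 213 on the CD4intCD8+ arrays, a 4.27-fold fall (-2.09 ± 0.13, adjusted p = 0.000333) of -2.10 and -2.09 in the 2 pairs. Tctex1d1, of the dynein light chain family, was 145 and 189 on the DP arrays and 24.5 and 33.8 on the CD4intCD8+ arrays (-2.31 ± 0.24, adjusted p = 0.00171). Spo11, the enzyme that breaks DNA in meiosis, fell from 229.7 to 59.2 and Tmcc3, an endoplasmic reticulum membrane protein, from 449 to 125. Mr1, the class I-like molecule that presents vitamin B metabolites to innate-like T cells, was 186 and 137 on the DP arrays and 43.9 and 54.9 on the CD4intCD8+ arrays, lower on both CD4intCD8+ arrays than on either DP array (-1.59 ± 0.20, adjusted p = 0.00367). Tsc22d1 fell by 1.58 ± 0.15 and F13a1, a coagulation factor subunit, by 1.54 ± 0.15. Among the 20 largest falls were also Wnt8b (-2.16), Nav2 (-1.95), the water channel gene Aqp11 (-1.85), Wdr78 (-1.80), Ankrd6 (-1.80), Gpr162 (-1.77), Cdk20 (-1.68), Cdcp1 (-1.63), Prrt1 (-1.63) and the vesicle fusion gene Vamp1 (-1.59). A second probe of Wdr78 changed by 0.11 and one of Prrt1 by 0.33, so these 2 falls rest on 1 probe each. Wnt8b, Nav2, Aqp11, Ankrd6, Gpr162, Cdk20 and Cdcp1 missed the threshold without DP replicate 2 (adjusted p from 0.0522 to 0.160), as did Aqp11, Gpr162 and Cdcp1 without DP replicate 1 (adjusted p from 0.0643 to 0.153). Wdr78 and Vamp1 lost significance with all probes averaged (adjusted p from 0.0542 to 0.0557), as did Cdcp1 without the variance trend (adjusted p = 0.0659).

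The largest rises joined a cell cycle regulator with receptors of maturing CD8 cells. Ccnd2 encodes cyclin D2, which activates kinases of the G1 phase, and was 123 and 87.0 on the DP arrays and 1046 and 647 on the CD4intCD8+ arrays. Both CD4intCD8+ arrays lay far above both DP arrays, a 7.58-fold rise (2.92 ± 0.23, adjusted p = 0.000672), and 6 other probes of the gene changed by 2.52 to 3.08. Cd7, an immunoglobulin family receptor of T cells, was 39.2 and 35.2 on the DP arrays and 284 and 283 on the CD4intCD8+ arrays, a 6.72-fold rise with changes of 2.68 and 2.81 in the pairs. Itgae, which encodes CD103, an integrin chain that lets T cells bind E-cadherin, was 61.3 and 41.6 on the DP arrays and 368 and 278 on the CD4intCD8+ arrays (2.53 ± 0.20, adjusted p = 0.000672). Nr4a3, an orphan nuclear receptor induced by receptor signals, was 33.7 and 31.6 on the DP arrays and 209 and 185 on the CD4intCD8+ arrays (2.39 ± 0.14, adjusted p = 0.000333). Smyd2, a protein methyltransferase, rose by 2.05 ± 0.29, Atp8b4, of the phospholipid flippase family, by 1.99 ± 0.17, and the mitochondrial protein gene Chchd10 by 1.93 ± 0.19. None of these overlapped between the stages, as the choice of the largest rises among genes without overlap requires.

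Several of the 20 largest rises started from dim DP values, so that the size of the change depends on the pseudocount. Adam19, a membrane metalloprotease, was 16.5 and 4.84 in DP and 85.3 and 54.9 in CD4intCD8+, Slfn1 was 20.6 and 6.90 in DP and 80.9 and 60.5 in CD4intCD8+, Plppr2 was 21.3 and 8.56 in DP and 81.5 and 56.9 in CD4intCD8+ and Rcn1, a calcium-binding protein of the secretory pathway, was 39.2 and 20.2 in DP and 132 and 110.5 in CD4intCD8+. Trpm1, a cation channel gene, was 8.94 and 2.77 in DP and 92.9 and 64.7 in CD4intCD8+ on 1 probe, while another changed by 0.16, and Tbc1d8 was -2.63 and 22.6 in DP and 50.3 and 51.6 in CD4intCD8+. For Trpm1 the call was lost with a pseudocount of 1, where the other probe stood for the gene (adjusted p = 0.631). All of them had both CD4intCD8+ arrays above both DP arrays, as the choice of the 20 largest rises requires. Slfn1 and Plppr2 fell short of the threshold without DP replicate 2 (adjusted p from 0.0556 to 0.0661), as did Tbc1d8 without DP replicate 1, without CD4intCD8+ replicate 1 or 2, without the filter on dim genes, without the variance trend, with the 4 arrays alone or with the actin covariate (adjusted p from 0.0520 to 0.267). Rcn1 missed the threshold with all probes averaged (adjusted p = 0.0601).

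**Figure D3:**
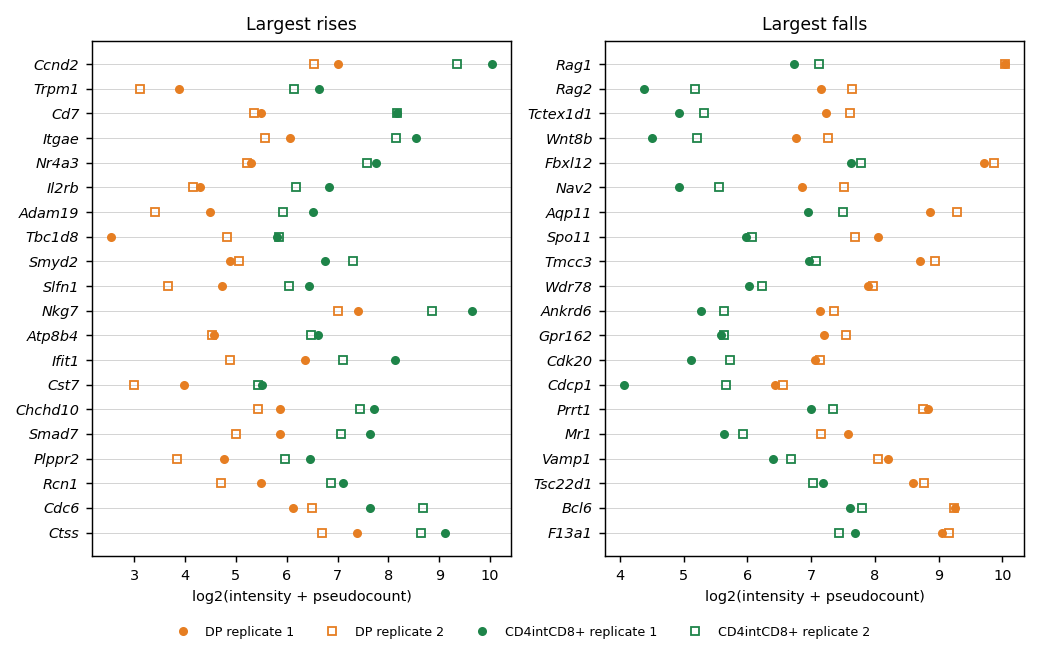
Log2(intensity + 5.84) on each of the 4 arrays for the 20 called genes with the largest rises (left) and the 20 with the largest falls (right), DP arrays in orange, CD4intCD8+ arrays in green, replicate 1 as filled circles and replicate 2 as open squares. In each row the arrays of 1 stage lie apart from those of the other, as the choice of genes requires.

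DNA replication genes were higher in CD4intCD8+ cells. Of the lists with at least 10 genes tested, only the double-positive stage genes had a larger share of called members in 1 direction. The lists were chosen with earlier results of these data known, so this ranking only describes them. Replication starts when Cdc6 and Cdt1 load the helicase made of Mcm proteins, the GINS complex and Cdc45 activate it, and polymerases, primase, clamp loaders and ligase copy the strands. Of 59 genes tested, 37 rose (6.86% of all genes did) and 0 fell, with a median change of 0.77. The promoters of 3 of these genes are printed before their values, because the words searched in them are known as sites of factors that control such genes.

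E2F factors are known to bind promoters of replication genes, and the words TTTGGCGC, TTTCGCGC, TTTGCCGC and TTTCCCGC, on either strand, were searched in the 250 bases before the start of each gene in RefSeq's GRCm38.p6 promoters. Of 50 replication genes with an entry there, 12 held at least 1 word (24.0%), of the 30 called higher 7 (23.3%), and of all 27025 genes 583 (2.16%). With the first 50 bases of the gene added, the shares were 40%, 43.3% and 2.6%. Below are the 150 bases before the start of Cdc6 (chr11:98908001-98908150, plus strand), Pola1 (chrX:93632156-93632305, minus strand) and Mcm6 (chr1:128359706-128359855, minus strand), with each word in capitals. Cdc6 and Pola1 had the largest changes among called replication genes with a word, and Mcm6 was chosen after its values were seen because it held 3, 2 of which overlap.
Cdc6: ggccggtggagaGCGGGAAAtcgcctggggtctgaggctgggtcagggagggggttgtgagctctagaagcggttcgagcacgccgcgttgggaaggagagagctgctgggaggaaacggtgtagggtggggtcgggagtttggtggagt
Pola1: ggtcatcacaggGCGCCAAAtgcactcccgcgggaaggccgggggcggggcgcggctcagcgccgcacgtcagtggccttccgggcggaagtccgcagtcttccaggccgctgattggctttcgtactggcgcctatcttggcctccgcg
Mcm6: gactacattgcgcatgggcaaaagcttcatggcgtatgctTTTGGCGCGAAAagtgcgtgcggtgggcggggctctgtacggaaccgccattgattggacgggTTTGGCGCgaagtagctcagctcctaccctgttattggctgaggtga
The word starts 138 bases before the start in Cdc6 and in Pola1, and 110, 106 and 47 bases before it in Mcm6. A match is a description of the letters and not a measured site.

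By role, the loader Cdc6 was 63.4 and 84.7 on the DP arrays and 194 and 406 on the CD4intCD8+ arrays (1.86 ± 0.32, adjusted p = 0.0103). Of the 6 helicase subunits Mcm2 to Mcm7, 5 rose, and the 6 changes ran from 0.33 to 1.36. Mcm3 was 208 and 214 on the DP arrays and 468 and 643 on the CD4intCD8+ arrays, a 2.56-fold rise (1.36 ± 0.17, adjusted p = 0.00361), and Mcm6 was 712 and 713 on the DP arrays and 1198 and 1689 on the CD4intCD8+ arrays (0.99 ± 0.16, adjusted p = 0.00798), while Mcm7 was 1366 and 1359 on the DP arrays and 1574 and 1871 on the CD4intCD8+ arrays (0.33 ± 0.11, adjusted p = 0.0894). In each of these 4 genes both CD4intCD8+ arrays lay above both DP arrays. Gins2, of the helicase-activating complex, rose from 55.3 to 192. Pola1, the catalytic subunit of the polymerase that starts each strand, was 66.4 and 59.9 on the DP arrays and 141 and 239.9 on the CD4intCD8+ arrays (1.47 ± 0.25, adjusted p = 0.0103), and Prim1, its primase partner, rose by 1.11 ± 0.15. Rfc4, of the clamp loader, was 153 and 168 on the DP arrays and 359 and 469 on the CD4intCD8+ arrays and rose by 1.33 ± 0.17. Tipin, which protects the fork, rose by 1.30 ± 0.18, and Ung, which removes uracil from DNA, rose 3.16-fold from 53.1 to 183. Prim1, Rfc4 and Tipin, with Mcm3 and Ung, were the 5 replication genes called in every setting, and the first 3 are named here after their values were seen.

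The size of the replication rise differed between the arrays. The list's median change was 0.59 in the replicate 1 pair and 1.04 in the replicate 2 pair, and in each gene given above with its arrays CD4intCD8+ replicate 2, the array with the actin ratio of 3.47, was the higher of the 2. Without that array 15 genes rose (2.55% of all genes) with a median of 0.58, and under the actin covariate 6 rose (2.18%) with a median of 0.38. Of the 37 calls, those kept numbered 7 without DP replicate 1, 6 without DP replicate 2, 36 without CD4intCD8+ replicate 1 and 15 without CD4intCD8+ replicate 2. Cdc6, Gins2 and Pola1 lost significance without DP replicate 1 or 2 (adjusted p from 0.0556 to 0.0843), as did Gins2 and Pola1 with the actin covariate (adjusted p from 0.0951 to 0.0953). Pola1 fell short of the threshold with all probes averaged (adjusted p = 0.350). Of the helicase subunits 1 rose without DP replicate 1, without DP replicate 2 and with the actin covariate, and 3 without CD4intCD8+ replicate 2. Mcm6 was not called when DP replicate 1 or 2 was left out (adjusted p = 0.0530 and 0.0582) or with the actin covariate (adjusted p = 0.0600).

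Genes of mitosis had a median change above that of all genes, but few passed the test. Of 54 tested, 8 rose and 0 fell, beside 6.86% higher and 4.84% lower of all genes, with a median change of 0.59. The list held 2 rises and 0 falls once CD4intCD8+ replicate 2 was omitted, and 1 and 0 under the actin covariate. With the replicate number as a block 36 rose (13.3% of all genes). Cenph, a centromere protein, was 40.7 and 35.6 on the DP arrays and 108 and 144 on the CD4intCD8+ arrays, a 2.98-fold rise with no overlap (1.57 ± 0.19, adjusted p = 0.00318). Bub1 and Mad2l1, which act in the spindle checkpoint, rose by 1.14 ± 0.20 and 0.95 ± 0.17. Mki67, the proliferation marker, was 702 and 757 on the DP arrays and 957 and 1276 on the CD4intCD8+ arrays, a change of 0.60 ± 0.20 (adjusted p = 0.0878) that was called with the block (adjusted p = 0.00514), with the 4 arrays alone (0.0344) and without CD4intCD8+ replicate 1 (0.0324). The list's median was 0.38 in the replicate 1 pair and 0.85 in the replicate 2 pair, and 0.00 under the actin covariate. Bub1 and Mad2l1 missed the threshold without DP replicate 1 or 2 or with the actin covariate (adjusted p from 0.0586 to 0.171), as did Mad2l1 without CD4intCD8+ replicate 2 (adjusted p = 0.0552).

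Regulators of the G1 phase moved both ways. Of 32 tested, 6 rose and 7 fell (median 0.11). These counts became 2 and 2 when CD4intCD8+ replicate 2 was omitted, and 1 and 1 under the actin covariate, rises first. Besides Ccnd2, the cyclin E genes Ccne1 and Ccne2, which act at the start of S phase, rose from 80.4 to 186 and from 71.3 to 188. Btg2, an antiproliferative gene, was 1912 and 2142 on the DP arrays and 1027 and 660.4 on the CD4intCD8+ arrays, a 2.45-fold fall (-1.29 ± 0.22, adjusted p = 0.0105). Cdkn2d, which encodes the kinase inhibitor p19, fell by 0.90 ± 0.20. Hells, a chromatin remodeler of replicating cells, was 69.7 and 66.2 on the DP arrays and 191 and 266 on the CD4intCD8+ arrays, a 3.14-fold rise (1.65 ± 0.18, adjusted p = 0.00217). Ccne1, Ccne2, Btg2 and Cdkn2d lost significance without DP replicate 1 or 2 or with the actin covariate (adjusted p from 0.0576 to 0.361), as did Ccne1 and Cdkn2d without CD4intCD8+ replicate 2 (adjusted p from 0.0538 to 0.0995). Cdkn2d fell short of the threshold without the variance trend (adjusted p = 0.0535).

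Many genes that make ribosomes rose as well. Ribosome biogenesis joins transcription of ribosomal RNA in the nucleolus with its cleavage, its modification and the addition of ribosomal proteins. Of 60 genes tested, 28 rose and 0 fell, with a median change of 0.56 (0.47 in the replicate 1 pair and 0.64 in the replicate 2 pair). Rrp12, which acts in subunit maturation and export, was 17.1 and 21.3 on the DP arrays and 67.1 and 72.5 on the CD4intCD8+ arrays, a 3.03-fold rise (1.60 ± 0.21, adjusted p = 0.00394). Nhp2, a core protein of the particles that convert uridine to pseudouridine, was 317 and 335 on the DP arrays and 717 and 773 on the CD4intCD8+ arrays, a change of 1.18 ± 0.12 (adjusted p = 0.00136) with 1.16 and 1.19 in the pairs. Gar1, of the same particle, rose by 1.06 ± 0.16, and the nucleolar GTPase Gnl3, named after its values were seen, by 1.00 ± 0.14. Myc, a transcription factor known to drive these genes, was 43.8 and 27.8 on the DP arrays and 95.4 and 116 on the CD4intCD8+ arrays (1.44 ± 0.21, adjusted p = 0.00586), with both CD4intCD8+ arrays above both DP arrays. Of the 28 calls, those kept numbered 10 without DP replicate 1, 5 without DP replicate 2, 24 without CD4intCD8+ replicate 1 and 11 without CD4intCD8+ replicate 2, while 4 genes were called higher under the actin covariate. Gar1 missed the threshold with the actin covariate (adjusted p = 0.0595).

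Enzymes that supply nucleotides and one-carbon units rose in part. Of 33 tested, 16 rose and 2 fell (median 0.46), beside 6.86% higher and 4.84% lower of all genes. With CD4intCD8+ replicate 2 left out the list had 6 rises and 2 falls, and under the actin covariate 5 and 2. Mthfd1, which interconverts folate-bound one-carbon units in the cytosol, was 73.6 and 68.6 on the DP arrays and 219 and 279 on the CD4intCD8+ arrays, a 3.29-fold rise (1.72 ± 0.21, adjusted p = 0.00290), and its mitochondrial relative Mthfd1l rose 2.18-fold (1.13 ± 0.15, adjusted p = 0.00430). Nme1, a nucleoside diphosphate kinase, was 555 and 619.5 on the DP arrays and 1073 and 1291 on the CD4intCD8+ arrays (1.00 ± 0.13, adjusted p = 0.00394). Hprt, the purine salvage enzyme named after its values were seen, was 619.6 and 639 on the DP arrays and 1015 and 1013 on the CD4intCD8+ arrays, a change of 0.68 ± 0.10 (adjusted p = 0.00569). Cad, which begins pyrimidine synthesis, rose by 1.40 ± 0.27 and Mthfd2 by 1.10 ± 0.20. The 5 genes of the list called in every setting were Mthfd1, Mthfd1l, Nme1, Nme2 and Hprt. Cad and Mthfd2 lost significance without DP replicate 2 or with the actin covariate (adjusted p from 0.0781 to 0.196), as did Cad without DP replicate 1, without CD4intCD8+ replicate 2 or with all probes averaged (adjusted p from 0.0527 to 0.229).

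The translation machinery itself moved less. Among 46 cytosolic ribosomal proteins 10 rose and 0 fell, with a median change of 0.06. Rpl14 was 116 and 127 on the DP arrays and 288 and 326 on the CD4intCD8+ arrays (1.29 ± 0.18, adjusted p = 0.00514), and Rpl22l1, a paralog of Rpl22, was 1243 and 1237 on the DP arrays and 2333 and 2137 on the CD4intCD8+ arrays (0.85 ± 0.09, adjusted p = 0.00203). Many of these proteins have processed pseudogenes that can share sequence with a probe. Of 40 translation factors 5 rose, led by the guanine exchange factor subunit Eif2b3 with 1.02 ± 0.15 (adjusted p = 0.00547), and of 28 tRNA synthetases 3 rose (median 0.34). With the replicate block 8 translation factors rose and 4 fell, and 10 synthetases rose, beside 13.3% higher and 10.1% lower of all genes. Without CD4intCD8+ replicate 2, 4 cytosolic ribosomal proteins, 1 translation factor and 0 synthetases were called higher.

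Mitochondrial ribosomal proteins rose in part, and other mitochondrial genes rose at shares near the 6.86% of all genes. Of 76 mitochondrial ribosomal proteins, 14 rose and 0 fell (median 0.32, 0.36 in the replicate 1 pair and 0.30 in the replicate 2 pair). With the replicate block 32 rose, beside 13.3% of all genes. Of 75 subunits of the respiratory chain and ATP synthase, 8 rose (10.7%, median 0.18), and 20 rose and 1 fell with the block. Of 26 genes of the tricarboxylic acid cycle 2 rose (7.69%, median 0.16). Mrpl19, of the large mitochondrial subunit, was 143 and 168 on the DP arrays and 249 and 284 on the CD4intCD8+ arrays (0.76 ± 0.16, adjusted p = 0.0212), and Atp5g1, of the ATP synthase rotor, was 341 and 415 on the DP arrays and 603 and 601 on the CD4intCD8+ arrays (0.67 ± 0.14, adjusted p = 0.0185). When CD4intCD8+ replicate 2 was left out, 0 genes of the first list and 0 of the second were called higher by limma, beside 2.55% of all genes. Mrpl19 and Atp5g1 fell short of the threshold without DP replicate 1 or 2, without CD4intCD8+ replicate 2 or with the actin covariate (adjusted p from 0.0539 to 0.287), as did Atp5g1 with all probes averaged (adjusted p = 0.661).

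**Figure D4:**
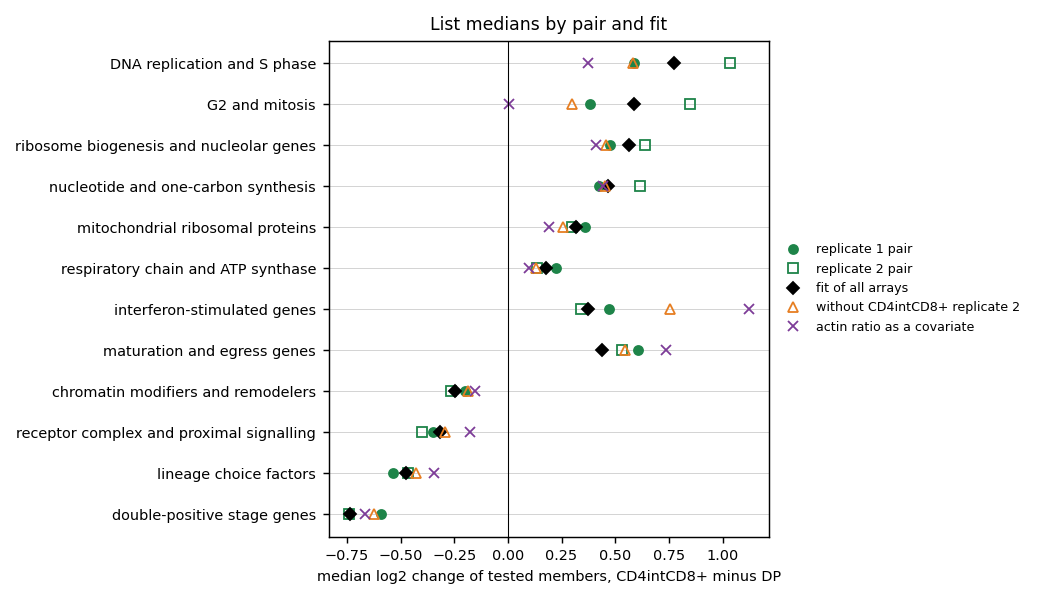
Median log2 change from DP to CD4intCD8+ of the tested members of 12 gene lists, in the replicate 1 pair (filled circles), the replicate 2 pair (open squares), the fit of all arrays (black diamonds), the fit without CD4intCD8+ replicate 2 (triangles) and the fit with the actin ratio as a covariate (crosses). The mitosis median goes from 0.59 to 0.00 with the covariate and the interferon median from 0.37 to 1.12, while the double-positive stage genes stay between -0.74 and -0.59.

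Carbon and lipid metabolism changed in single enzymes. Ldhb, which encodes the H subunit of lactate dehydrogenase, was 1674 and 2006 on the DP arrays and 688 and 577 on the CD4intCD8+ arrays, a 2.89-fold fall (-1.53 ± 0.13, adjusted p = 0.000945) that 3 other probes shared. It was the 1 fall among 20 glycolysis genes, of which 3 rose, with the muscle-type enolase Eno3 (1.26) and triosephosphate isomerase Tpi1 (0.93) first. Of 29 genes of fatty acid metabolism 6 rose and 0 fell. The list held 3 rises and 0 falls once CD4intCD8+ replicate 2 was omitted, and 1 and 0 under the actin covariate. Fabp5, a fatty acid binding protein, was 279.7 and 306 on the DP arrays and 637 and 844 on the CD4intCD8+ arrays, a 2.48-fold rise (1.31 ± 0.17, adjusted p = 0.00360), and Acaca, the enzyme that commits acetyl groups to fatty acids, rose by 1.28 ± 0.24. In cholesterol synthesis and uptake 5 of 24 rose (8 with the replicate block, 1 without CD4intCD8+ replicate 2 and 0 under the actin covariate by limma), with Idi1, an isomerase of the pathway, at 1.34. Eno3, Tpi1, Acaca and Idi1 missed the threshold without DP replicate 2 (adjusted p from 0.0685 to 0.0863), as did Tpi1, Acaca and Idi1 without DP replicate 1 or with the actin covariate (adjusted p from 0.0728 to 0.335). Tpi1 lost significance without CD4intCD8+ replicate 2 or without the variance trend (adjusted p from 0.0507 to 0.100), as did Acaca with all probes averaged (adjusted p = 0.452).

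Transporters moved in both directions, with 9 rises and 8 falls among 175 solute carriers (19 and 16 with the replicate block), shares below those of all genes. Slc7a5, the light chain of the large neutral amino acid transporter, was 29.1 and 27.2 on the DP arrays and 79.2 and 129 on the CD4intCD8+ arrays, a 3.15-fold rise (1.65 ± 0.26, adjusted p = 0.00798), and Slc7a1, a carrier of cationic amino acids, rose by 1.18 ± 0.19. Slc16a5, of the monocarboxylate transporter family, was 572 and 519 on the DP arrays and 199 and 222 on the CD4intCD8+ arrays, a 2.55-fold fall (-1.35 ± 0.13, adjusted p = 0.00136). Tfrc, the transferrin receptor that brings iron into dividing cells, was 744 and 585 on the DP arrays and 948 and 1095 on the CD4intCD8+ arrays (0.62 ± 0.14, adjusted p = 0.0248). Slc7a5, Slc7a1 and Tfrc fell short of the threshold without DP replicate 2 or with the actin covariate (adjusted p from 0.0509 to 0.246), as did Slc16a5 and Tfrc with all probes averaged (adjusted p from 0.291 to 0.466). Slc7a1 missed the threshold without DP replicate 1 (adjusted p = 0.0643), as did Tfrc without CD4intCD8+ replicate 2 or without the variance trend (adjusted p from 0.0662 to 0.130).

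Protein folding and turnover genes changed in part. With the replicate block 17 of 43 chaperones and genes of the unfolded protein response rose and 5 fell, beside 13.3% and 10.1% of all genes. In the main fit 11 rose and 2 fell (median 0.28), beside 6.86% higher and 4.84% lower of all genes. These counts became 3 and 1 when CD4intCD8+ replicate 2 was omitted, and 1 and 1 under the actin covariate, rises first. Hspa9, the mitochondrial Hsp70, was 235 and 196 on the DP arrays and 382 and 490.3 on the CD4intCD8+ arrays (0.99 ± 0.17, adjusted p = 0.00923), and Hsp90b1, the chaperone of the endoplasmic reticulum, rose by 0.81 ± 0.14. Edem1, which sends misfolded glycoproteins to degradation, was 1468 and 1412 on the DP arrays and 842 and 957 on the CD4intCD8+ arrays and fell by 0.68 ± 0.11. Of 41 proteasome subunits 5 rose (14 rose and 1 fell with the block, and 1 rose without CD4intCD8+ replicate 2), with Psme3, the PA28 gamma activator, at 0.68. Hspa9, Hsp90b1, Edem1 and Psme3 lost significance without DP replicate 2 (adjusted p from 0.0577 to 0.0942), as did Hspa9, Hsp90b1 and Psme3 with the actin covariate (adjusted p from 0.0793 to 0.329). Hspa9 and Psme3 fell short of the threshold with all probes averaged (adjusted p from 0.103 to 0.269), as did Edem1 and Psme3 without DP replicate 1 (adjusted p from 0.0616 to 0.136). Hsp90b1 and Psme3 missed the threshold without CD4intCD8+ replicate 2 (adjusted p from 0.0535 to 0.137).

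Part of the T cell receptor complex and of its proximal signalling genes fell. Of 33 tested, 10 fell and 0 rose, with a median change of -0.32 (-0.35 in the replicate 1 pair and -0.40 in the replicate 2 pair), and 21 fell with the replicate block (10.1% of all genes). Sla, an adaptor that promotes removal of the receptor from the surface, was 1951 and 2089 on the DP arrays and 1109.9 and 1273 on the CD4intCD8+ arrays (-0.76 ± 0.10, adjusted p = 0.00494). Themis was 1540.1 and 1601 on the DP arrays and 926 and 955 on the CD4intCD8+ arrays (-0.74 ± 0.10, adjusted p = 0.00394), and its changes in the pairs were -0.73 and -0.74. For both genes each CD4intCD8+ array lay below each DP array, and both were called in every setting. Cd28, the costimulatory receptor, fell from 1536 to 893, Sla2 by 0.68 ± 0.13 and the Tec family kinase Txk by 0.67 ± 0.15. Without CD4intCD8+ replicate 2, 2 genes were called lower (1.79% of all genes), and under the actin covariate 3. Cd28, Sla2 and Txk lost significance without DP replicate 1 or 2, without CD4intCD8+ replicate 2 or with the actin covariate (adjusted p from 0.0558 to 0.423), as did Cd28 and Txk without the variance trend (adjusted p from 0.0551 to 0.0564).

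Inhibitors of receptor signalling moved both ways, with 2 rises and 8 falls among 28 tested (median -0.19), beside 6.86% higher and 4.84% lower of all genes. With CD4intCD8+ replicate 2 left out the list had 2 rises and 3 falls, and under the actin covariate 2 and 1. Pdcd1, which encodes the inhibitory receptor PD-1, was 61.0 and 59.2 on the DP arrays and 132 and 151 on the CD4intCD8+ arrays, a 2.23-fold rise (1.16 ± 0.15, adjusted p = 0.00354), and Btla, another inhibitory receptor, rose by 0.92 ± 0.19. Socs1, an inhibitor of cytokine signalling, was 125 and 95.9 on the DP arrays and 44.6 and 35.5 on the CD4intCD8+ arrays, a 2.52-fold fall (-1.34 ± 0.20, adjusted p = 0.00617), and the adaptor Sit1 fell by 0.99 ± 0.15. In calcium signalling 1 of 25 rose and 5 fell. The list held 1 rise and 2 falls once CD4intCD8+ replicate 2 was omitted, and 1 and 1 under the actin covariate. Among the channel proteins that admit calcium after receptor engagement, Orai2 was 235 and 211 in DP and 146 and 113 in CD4intCD8+ and fell, and Orai3 was 24.9 and 16.8 in DP and 54.3 and 43.0 in CD4intCD8+ and rose. Itpkb, a kinase that phosphorylates inositol trisphosphate and is required for thymocyte selection, fell by 0.80 ± 0.13. The median of the calcium list was -0.14 in the replicate 1 pair and 0.01 in the replicate 2 pair. Btla, Sit1, Orai2, Orai3 and Itpkb fell short of the threshold without DP replicate 2 (adjusted p from 0.0654 to 0.110), as did Socs1, Sit1, Orai2 and Itpkb with the actin covariate (adjusted p from 0.0595 to 0.278). Socs1 and Orai2 missed the threshold without DP replicate 1 (adjusted p from 0.0574 to 0.119), as did Orai3 without CD4intCD8+ replicate 1 (adjusted p = 0.0517). Orai2 lost significance without CD4intCD8+ replicate 2 (adjusted p = 0.108).

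Transcription factors induced by receptor signals did not move as a group. Of 16 tested, 3 rose and 2 fell (median -0.21, and 0.08 without CD4intCD8+ replicate 2). In the Nr4a family, Nr4a1, also known as Nur77, was 461 and 307 on the DP arrays and 755 and 565 on the CD4intCD8+ arrays (0.79 ± 0.21, adjusted p = 0.0425). Egr1 was 1659 and 1802 on the DP arrays and 1531 and 1461 on the CD4intCD8+ arrays (-0.21 ± 0.11, adjusted p = 0.233) and Egr2 was 538 and 577 on the DP arrays and 453 and 429 on the CD4intCD8+ arrays (-0.33 ± 0.15, adjusted p = 0.175). Egr3 was 71.0 and 73.3 on the DP arrays and 196 and 144 on the CD4intCD8+ arrays on its brighter probe (1.16 ± 0.20, adjusted p = 0.00933), while another probe changed by -0.01. A pair of surface readouts of receptor signals were not called: Cd69 was 470.4 and 359.6 on the DP arrays and 538 and 359 on the CD4intCD8+ arrays (0.10 ± 0.24, adjusted p = 0.835) and Cd5 was 1678 and 1801 on the DP arrays and 1448 and 1306 on the CD4intCD8+ arrays (-0.34 ± 0.10, adjusted p = 0.0545). Cd5 was called lower with the replicate block (adjusted p = 0.0183) and under the 60th-percentile filter (0.0443). Nr4a1 and Egr3 fell short of the threshold without DP replicate 2 (adjusted p from 0.0649 to 0.208), as did Nr4a1 without CD4intCD8+ replicate 1, without the filter on dim genes, with all probes averaged or without the variance trend (adjusted p from 0.0512 to 0.125). Egr3 missed the threshold without DP replicate 1 (adjusted p = 0.0661).

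Transcription factors of lineage choice fell in part, with 0 of the list called higher by limma. Of 15 tested, 7 fell (9 with the replicate block, 4 without CD4intCD8+ replicate 2), with a median change of -0.48 (-0.54 in the replicate 1 pair and -0.47 in the replicate 2 pair). Myb, needed for survival of DP cells, was 1629 and 1525 on the DP arrays and 745 and 814 on the CD4intCD8+ arrays, a 2.02-fold fall (-1.01 ± 0.12, adjusted p = 0.00240), and 2 other probes fell by 1.19 and 1.35. Tox and Gata3, which are needed for the CD4 lineage, fell by 0.76 ± 0.16 and 0.58 ± 0.15. Runx3, the factor that silences Cd4 in CD8 cells, was 228 and 227 on the DP arrays and 354 and 248 on the CD4intCD8+ arrays (0.38 ± 0.18, adjusted p = 0.215), with both CD4intCD8+ arrays above the DP arrays and a call with the actin covariate (adjusted p = 0.0414). Zbtb7b, the factor that sets the CD4 lineage, was 29.5 and 22.8 on the DP arrays and 30.1 and 31.6 on the CD4intCD8+ arrays, under the filter on dim genes and not called without it, when limma called 5.69% of 18193 genes. Id3, an inhibitor of E proteins, was 955 and 1016 on the DP arrays and 897 and 827 on the CD4intCD8+ arrays (-0.19 ± 0.10, adjusted p = 0.258). Tox and Gata3 lost significance without DP replicate 1 or 2, without CD4intCD8+ replicate 2 or without the variance trend (adjusted p from 0.0516 to 0.158), as did Tox with the actin covariate (adjusted p = 0.317). Gata3 fell short of the threshold without CD4intCD8+ replicate 1, with all probes averaged or with quantile normalization (adjusted p from 0.0512 to 0.115).

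Notch and TGF-beta pathway genes moved both ways. Lfng, a glycosyltransferase that modifies Notch receptors, was 10.9 and 5.09 on the DP arrays and 29.5 and 51.5 on the CD4intCD8+ arrays (1.73 ± 0.31, adjusted p = 0.0113), near the pseudocount in DP. Dtx1, a Notch target, was 192 and 171 on the DP arrays and 379.9 and 308 on the CD4intCD8+ arrays (0.90 ± 0.17, adjusted p = 0.0130), and the receptor gene Notch3 was 164 and 170.4 on the DP arrays and 86.6 and 98.2 on the CD4intCD8+ arrays (-0.82 ± 0.16, adjusted p = 0.0134). In all, 3 of 23 Notch genes rose and 5 fell. These counts became 2 and 1 when CD4intCD8+ replicate 2 was omitted, and 1 and 1 under the actin covariate, rises first. Smad7, which inhibits TGF-beta receptors, was 52.5 and 26.0 on the DP arrays and 194 and 128 on the CD4intCD8+ arrays, a 3.80-fold rise (1.92 ± 0.28, adjusted p = 0.00584), and a second probe rose by 1.53. It and Tgfbr3 (0.77) were the 2 rises among 21 TGF-beta genes, of which 0 fell. Lfng, Dtx1, Notch3 and Tgfbr3 missed the threshold without DP replicate 2 (adjusted p from 0.0737 to 0.109), as did Dtx1, Notch3 and Tgfbr3 without DP replicate 1 or with all probes averaged (adjusted p from 0.0617 to 0.172). Lfng lost significance with the actin covariate (adjusted p = 0.117), as did Tgfbr3 without CD4intCD8+ replicate 1 or without the filter on dim genes (adjusted p from 0.0555 to 0.116).

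Chromatin modifiers and remodelers had 3 rises and 15 falls among 78, beside 6.86% higher and 4.84% lower of all genes. Their median change was -0.25 (-0.20 in the replicate 1 pair and -0.26 in the replicate 2 pair). With the replicate block 8 rose and 28 fell, beside 13.3% higher and 10.1% lower of all genes. With CD4intCD8+ replicate 2 left out the list had 2 rises and 2 falls, and under the actin covariate 2 and 1. The falls included the histone demethylase Kdm4b (-0.76), the histone methyltransferase Kmt2a (-0.74) and the deacetylase Hdac7 (-0.73). The rises were Hells, Cbx5, which binds methylated histones of heterochromatin (0.76), and the DNA methyltransferase Dnmt3b (0.75). Kdm4b, Kmt2a, Hdac7, Cbx5 and Dnmt3b fell short of the threshold without DP replicate 1 or 2, without CD4intCD8+ replicate 2 or with the actin covariate (adjusted p from 0.0609 to 0.540), as did Cbx5 with all probes averaged or without the variance trend (adjusted p from 0.0659 to 0.338).

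Single cytokine receptor chains moved in opposite directions. Il2rb, a chain that interleukin 2 and interleukin 15 receptors have in common, was 13.8 and 12.1 on the DP arrays and 108 and 66.3 on the CD4intCD8+ arrays, a 4.83-fold rise (2.27 ± 0.23, adjusted p = 0.00136). Il4ra, of the interleukin 4 receptor, was 388 and 500.0 on the DP arrays and 160.1 and 144 on the CD4intCD8+ arrays, a 2.83-fold fall (-1.50 ± 0.18, adjusted p = 0.00322), and Ifngr1, of the interferon gamma receptor, was 1223 and 1176 on the DP arrays and 477 and 490.0 on the CD4intCD8+ arrays, a 2.46-fold fall (-1.30 ± 0.12, adjusted p = 0.00107). In these 3 genes the stages did not overlap and the call held in every setting. Il7r, which carries survival signals in mature T cells, was 28.8 and 24.2 on the DP arrays and 66.8 and 55.7 on the CD4intCD8+ arrays (1.05 ± 0.30, adjusted p = 0.0512), called with the replicate block (0.0192), with a pseudocount of 1 (0.0413) and with the 4 arrays alone (0.0174). Of 18 chains 3 rose and 4 fell. In the TNF receptor family Tnfrsf1b, the second receptor for tumour necrosis factor, was 37.8 and 35.3 on the DP arrays and 142 and 127 on the CD4intCD8+ arrays, a 3.31-fold rise (1.73 ± 0.16, adjusted p = 0.00131), while Tnfrsf1a, the first, was 413 and 436 on the DP arrays and 239.7 and 206 on the CD4intCD8+ arrays (-0.91 ± 0.15, adjusted p = 0.00813) and the death receptor Fas fell by 0.77 ± 0.17. Of 16 members 2 rose and 3 fell. Tnfrsf1a and Fas missed the threshold without DP replicate 2 or with the actin covariate (adjusted p from 0.0651 to 0.267), as did Fas without DP replicate 1 or without CD4intCD8+ replicate 2 (adjusted p from 0.0996 to 0.101).

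Genes of maturation and thymic egress rose in part, with 6 higher and 2 lower of 21 tested (11 and 5 with the replicate block) and a median of 0.44. S1pr1, the sphingosine phosphate receptor that guides cells out of the thymus, was 42.8 and 18.6 on the DP arrays and 99.1 and 71.5 on the CD4intCD8+ arrays (1.38 ± 0.32, adjusted p = 0.0254). Klf2, the factor that induces S1pr1, was 676 and 351 on the DP arrays and 1413 and 755 on the CD4intCD8+ arrays, a change of 1.07 ± 0.32 (adjusted p = 0.0599) that missed the threshold, and Ccr7, the receptor that leads cells to the medulla, was 139 and 73.2 on the DP arrays and 295 and 164 on the CD4intCD8+ arrays (1.08 ± 0.33, adjusted p = 0.0682). Klf2 changed by 1.06 and 1.09 and Ccr7 by 1.06 and 1.10 in the pairs, and for both genes replicate 1 was the higher array in each stage. Both had CD4intCD8+ arrays above both DP arrays and were called with the block (adjusted p = 0.00289 and 0.000452), with the actin covariate (0.00509 and 0.0034) and without CD4intCD8+ replicate 2 (0.0124 and 0.0245), and Klf2 also without DP replicate 1 (0.0470). Ccr9, the receptor that holds cells in the cortex and gut, was 4368 and 4220.4 on the DP arrays and 3076 and 3089 on the CD4intCD8+ arrays (-0.48 ± 0.09, adjusted p = 0.0134), and Gpr18, a lipid receptor of CD8 cells, rose by 1.09 ± 0.20. Dapl1 and the membrane protein gene Ms4a4b also rose, the first from 15.0 and 17.8 in DP to 66.3 and 65.1 in CD4intCD8+ and the second from 1223 and 846 in DP to 2323 and 1649.7 in CD4intCD8+. S1pr1, Ccr9, Gpr18, Dapl1 and Ms4a4b lost significance without DP replicate 2 (adjusted p from 0.0699 to 0.120), as did Ccr9, Gpr18 and Dapl1 without DP replicate 1 (adjusted p from 0.0730 to 0.114). S1pr1, Ccr9 and Ms4a4b fell short of the threshold without the variance trend (adjusted p from 0.0513 to 0.0822), as did Ccr9 and Dapl1 with the actin covariate (adjusted p from 0.126 to 0.165). Dapl1 missed the threshold with a pseudocount of 32 (adjusted p = 0.0639).

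In the SLAM and CD28 families 3 of 15 rose and 3 fell. Slamf1, a self-ligand receptor of DP cells, was 498 and 444 on the DP arrays and 226 and 212 on the CD4intCD8+ arrays, a 2.12-fold fall (-1.08 ± 0.16, adjusted p = 0.00610), and Cd48, a ligand of the family, was 347 and 468 on the DP arrays and 688 and 649.8 on the CD4intCD8+ arrays (0.72 ± 0.15, adjusted p = 0.0192). Slamf1 and Cd48 lost significance without DP replicate 1 or with the actin covariate (adjusted p from 0.0506 to 0.109), as did Cd48 without CD4intCD8+ replicate 2 or without the variance trend (adjusted p from 0.0514 to 0.0522).

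Several genes of killer lymphocytes rose in CD4intCD8+ cells, among them a granzyme, granule proteins and surface receptors. Gzma, which encodes granzyme A, was 978 and 852 on the DP arrays and 2434 and 2949 on the CD4intCD8+ arrays, a 2.92-fold rise (1.55 ± 0.12, adjusted p = 0.000672). Nkg7, a protein of cytotoxic granules, was 164 and 123 on the DP arrays and 792 and 459 on the CD4intCD8+ arrays (2.04 ± 0.24, adjusted p = 0.00241), and Ctsw, a cathepsin of cytotoxic cells, was 167 and 143 on the DP arrays and 751 and 411 on the CD4intCD8+ arrays (1.81 ± 0.25, adjusted p = 0.00514). Cd160, a receptor of cytotoxic cells, was 32.1 and 37.5 on the DP arrays and 127 and 99.8 on the CD4intCD8+ arrays, a 2.92-fold rise (1.55 ± 0.17, adjusted p = 0.00203). In these 4 genes both CD4intCD8+ arrays lay above both DP arrays. Klrd1, the CD94 chain, was 13.9 and 13.7 on the DP arrays and 37.0 and 44.0 on the CD4intCD8+ arrays (1.23 ± 0.25, adjusted p = 0.0165). Of 9 genes of granzymes, perforin and T-box factors 3 rose and 1 fell, and of 19 natural killer type receptors on the array 3 passed the filter. Ctsw and Klrd1 fell short of the threshold without DP replicate 2 (adjusted p from 0.0509 to 0.0872), as did Klrd1 without DP replicate 1, without CD4intCD8+ replicate 2, with a pseudocount of 32 or with the actin covariate (adjusted p from 0.0542 to 0.202).

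Markers of natural killer cells share some of these genes. Of 11 on the array 5 passed the filter, and the intensities of all 11 summed to 1371 and 1173 on the DP arrays and 3469 and 3594 on the CD4intCD8+ arrays, of which Gzma and Nkg7 made the larger part. Of the 5 that passed, Gzma, Nkg7 and Klrd1 were called higher, and Prf1 and Cd244a were not called. Klrd1 passed only through its CD8 single-positive arrays, at 275 and 485. The 6 under the filter were dim in both stages, among them Ncr1, Klrk1 and Tbx21. Ncr1 was 25.5 and 22.9 in DP and 19.9 and 14.2 in CD4intCD8+, and Klrk1 13.6 and 12.3 in DP and 10.4 and 19.3 in CD4intCD8+. Tbx21 was -1.71 and -20.6 in DP and 3.97 and 10.1 in CD4intCD8+. Perforin, Prf1, was 109 and 81.0 in DP and 94.9 and 37.0 in CD4intCD8+. Summed markers of other cells differed less. They were 237 and 236 in DP against 357 and 243 for dendritic cells, 385 and 402 against 406 and 472 for myeloid cells, and 576 and 577 against 488 and 522 for epithelium and stroma. For erythroid cells and platelets they were 1029 and 832 against 1204 and 1343, with Tfrc the larger part. Double-negative thymocyte markers summed to 883 and 820 against 1011 and 1026. Among them Dtx1 rose and Notch3 fell, with values given above. Sums were lower for B cells, at 2472 and 2886 against 2418 and 2203. Ighm made the larger part, 2009 and 2373 against 1846 and 1762, and 1 B cell marker was called higher and 1 lower. Sums were also lower for gamma delta and natural killer T cells, 838 and 844 against 668 and 791. There Cd1d1 made the larger part, 665 and 682 against 455 and 504. Etv5 went the other way, 40.7 and 33.9 against 84.5 and 132, and 1 marker was called higher and 0 lower. CD4 and regulatory T cell markers went from 1222 and 1269 to 1132 and 974. That sum holds Cd4, on which the cells were sorted, at 351 and 515 against -33.0 and 11.8. Ikzf2, the largest member, went the other way, from 580 and 469 to 833 and 722. The part of these cells in the results was not tested.

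Single lysosomal proteases moved in opposite directions. Ctsl, the cathepsin that makes class II peptides in the thymic cortex, was 783 and 865 on the DP arrays and 269 and 316 on the CD4intCD8+ arrays, a 2.79-fold fall (-1.48 ± 0.13, adjusted p = 0.00109). Ctss, its counterpart in other antigen-presenting cells, was 161 and 97.1 on the DP arrays and 548 and 392 on the CD4intCD8+ arrays, a 3.58-fold rise (1.84 ± 0.24, adjusted p = 0.00432), and Cst7, an inhibitor of cathepsins, was 9.82 and 2.18 on the DP arrays and 39.6 and 37.2 on the CD4intCD8+ arrays, near the pseudocount in DP (1.98 ± 0.31, adjusted p = 0.00754). Of 20 cathepsins and cystatins 3 rose and 2 fell. Cd74, the invariant chain of class II molecules, was 29.5 and 33.1 on the DP arrays and 88.8 and 100.1 on the CD4intCD8+ arrays, a 2.70-fold rise (1.43 ± 0.18, adjusted p = 0.00354), and H2-Ab1 was 38.0 and 43.8 on the DP arrays and 80.3 and 118 on the CD4intCD8+ arrays (1.15 ± 0.28, adjusted p = 0.0330). H2-Ea was 164 and 118 in DP and 136 and 105 in CD4intCD8+. H2-Ob was 57.9 and 36.0 in DP and 32.4 and 26.0 in CD4intCD8+. The 9 class II genes tested had a median change of 0.54, with 5 changes above 0 and 4 below. Of the 9, 2 rose and 0 fell, and 5 rose with the replicate block. Their regulator Ciita was 32.1 and 37.1 in DP and 41.1 and 9.13 in CD4intCD8+, and the summed intensity of the list was 734 and 643 on the DP arrays and 882 and 782 on the CD4intCD8+ arrays. Ctsl and H2-Ab1 missed the threshold with all probes averaged (adjusted p from 0.0531 to 0.376), as did H2-Ab1 without DP replicate 1 or 2, without CD4intCD8+ replicate 2, without the variance trend or with the actin covariate (adjusted p from 0.0601 to 0.448).

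Few interferon-stimulated genes were called. Of 37 tested 4 rose, a share (10.8%) near the 6.86% of all genes, and 0 fell, with a median change of 0.37. With the replicate block 13 rose and 1 fell, 8 rose when CD4intCD8+ replicate 2 was left out, and 17 rose under the actin covariate with a median of 1.12. Ifit1, an antiviral RNA-binding protein, was 76.3 and 23.9 on the DP arrays and 272 and 131 on the CD4intCD8+ arrays (1.98 ± 0.48, adjusted p = 0.0321). Bst2, also called tetherin, was 34.8 and 19.6 on the DP arrays and 120.1 and 59.3 on the CD4intCD8+ arrays, Gbp3, a guanylate-binding protein, was 35.4 and 19.0 on the DP arrays and 81.8 and 82.8 on the CD4intCD8+ arrays, and Lgals3bp was 91.5 and 68.3 on the DP arrays and 254 and 190.1 on the CD4intCD8+ arrays. In each of these genes replicate 1 was the higher of the DP arrays. In class I antigen presentation 3 of 18 rose (6 rose and 1 fell with the block), led by the peptide trimmer Erap1 (0.79). Ifit1, Bst2, Gbp3, Lgals3bp and Erap1 lost significance without DP replicate 2 (adjusted p from 0.0557 to 0.165), as did Ifit1 without CD4intCD8+ replicate 1 or without the variance trend (adjusted p from 0.0630 to 0.0658). Erap1 fell short of the threshold with all probes averaged (adjusted p = 0.0613).

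The word AAANNGAAA, on either strand, is part of the element bound by interferon-activated factors. It was in the 250 bases before the start of 20 of 29 interferon-stimulated genes with a promoter in the table (69.0%), and of 2915 of all 27025 genes (10.8%). All 4 called genes held it. Their 150 bases before the start are given with the words in capitals, at chr19:34640739-34640888, plus strand for Ifit1, chr8:71537473-71537622, minus strand for Bst2, chr3:142559894-142560043, plus strand for Gbp3 and chr11:118401960-118402109, minus strand for Lgals3bp.
Ifit1: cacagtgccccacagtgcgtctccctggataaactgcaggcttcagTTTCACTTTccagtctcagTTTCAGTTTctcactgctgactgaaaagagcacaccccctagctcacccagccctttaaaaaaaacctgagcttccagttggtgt
Bst2: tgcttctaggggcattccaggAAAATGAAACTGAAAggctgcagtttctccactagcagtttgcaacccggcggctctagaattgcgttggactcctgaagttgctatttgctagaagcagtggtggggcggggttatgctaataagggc
Gbp3: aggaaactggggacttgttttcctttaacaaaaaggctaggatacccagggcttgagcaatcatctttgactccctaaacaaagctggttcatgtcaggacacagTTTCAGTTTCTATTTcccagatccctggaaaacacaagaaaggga
Lgals3bp: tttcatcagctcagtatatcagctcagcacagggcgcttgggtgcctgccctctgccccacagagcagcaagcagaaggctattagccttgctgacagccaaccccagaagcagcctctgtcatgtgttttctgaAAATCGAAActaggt
Ifit1, Bst2 and Gbp3 hold 2 words each, which overlap in Bst2 and Gbp3, and the word nearest to a start is that of Lgals3bp, 15 bases before it. A word for sterol-regulated genes, TCACCCCA, was in 2 of 21 cholesterol genes (9.52%) and in 1.54% of all genes.

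Survival genes of the Bcl2 family moved in opposite directions. Bcl2l1, which encodes the Bcl-xL protein that keeps DP cells alive, was 297 and 366 on the DP arrays and 107 and 126 on the CD4intCD8+ arrays, a 2.75-fold fall (-1.46 ± 0.21, adjusted p = 0.00533). Bcl2 was 361 and 313 on the DP arrays and 586 and 476 on the CD4intCD8+ arrays (0.64 ± 0.14, adjusted p = 0.0210), and 4 other probes of the gene changed by 0.05 to 0.60. Of 24 Bcl2 family genes and caspases 2 rose and 1 fell. Genes of autophagy and the lysosome had 2 rises and 7 falls among 44 (median -0.25), beside 6.86% higher and 4.84% lower of all genes. With the replicate block 3 rose and 11 fell, beside 13.3% higher and 10.1% lower of all genes. The list held 0 rises and 1 fall once CD4intCD8+ replicate 2 was omitted, and 0 and 0 under the actin covariate. Psap, which activates lysosomal lipid breakdown, was 827 and 950.1 on the DP arrays and 549.8 and 501 on the CD4intCD8+ arrays (-0.75 ± 0.13, adjusted p = 0.0108). Bcl2l1, Bcl2 and Psap missed the threshold without DP replicate 2 (adjusted p from 0.0546 to 0.119), as did Bcl2l1 and Bcl2 with all probes averaged (adjusted p from 0.184 to 0.246). Bcl2 lost significance without DP replicate 1, without CD4intCD8+ replicate 1 or without the variance trend (adjusted p from 0.0517 to 0.0817), as did Psap without CD4intCD8+ replicate 2 or with the actin covariate (adjusted p from 0.0505 to 0.0612).

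Guidance receptors, Gimap GTPases and glycosyltransferases held single changes. Ephb6, an Eph receptor of T cells, was 145 and 156 on the DP arrays and 66.3 and 70.0 on the CD4intCD8+ arrays and fell by 1.07 ± 0.18, and Plxdc2 fell by 1.05 ± 0.17. These led 3 falls and 1 rise among 33 plexins, semaphorins and ephrins. Of 8 Gimap GTPases, which act in lymphocyte survival, 2 fell, and with the block 3 rose and 3 fell. Under the actin covariate 2 rose and 0 fell. The Gimap median was -0.19, with 0.08 in the replicate 1 pair and -0.42 in the replicate 2 pair. It was -0.01 without CD4intCD8+ replicate 2, so the direction of this list depends on the array. The transferases Galnt4 and St3gal2, which start and cap sugar chains, fell by 0.99 ± 0.18 and 0.97 ± 0.17, 2 of 3 changes among 47 glycosyltransferases. Ephb6, Plxdc2, Galnt4 and St3gal2 fell short of the threshold without DP replicate 2 (adjusted p from 0.0660 to 0.0872), as did Ephb6, Galnt4 and St3gal2 without DP replicate 1 (adjusted p from 0.0601 to 0.0946). Galnt4 and St3gal2 missed the threshold with the actin covariate (adjusted p from 0.0881 to 0.0900), as did St3gal2 with all probes averaged (adjusted p = 0.0787).

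Genes outside the lists made up 61 of the 106 called in every setting, and those that follow were chosen after their values were seen. Pvr, a ligand of receptors on killer cells, was 364 and 467 on the DP arrays and 162 and 158 on the CD4intCD8+ arrays (-1.34 ± 0.15, adjusted p = 0.00240). Ssbp2, a DNA-binding protein, was 1455 and 1574 on the DP arrays and 583 and 609.6 on the CD4intCD8+ arrays, a 2.52-fold fall, and the ceramide kinase gene Cerk fell by 1.40 ± 0.16. Glcci1, a glucocorticoid-induced gene, was 960.2 and 950.0 on the DP arrays and 328 and 392 on the CD4intCD8+ arrays, and the receptor phosphatase gene Ptpre fell by 1.38 ± 0.15. Among rises, Pim2, a survival kinase, was 61.4 and 55.4 on the DP arrays and 174 and 142 on the CD4intCD8+ arrays (1.34 ± 0.15, adjusted p = 0.00225), and Plac8 was 465 and 266 on the DP arrays and 1084 and 946 on the CD4intCD8+ arrays, a 2.84-fold rise. Ppa1, a pyrophosphatase, was 114 and 151 on the DP arrays and 393 and 467 on the CD4intCD8+ arrays (1.67 ± 0.19, adjusted p = 0.00222), Lap3, an aminopeptidase, rose by 1.59 ± 0.21, and Decr1, a reductase of mitochondrial fatty acid breakdown, by 1.42 ± 0.19. In every gene named here both arrays of 1 stage lay above both arrays of the other, as called genes do.

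**Figure D5:**
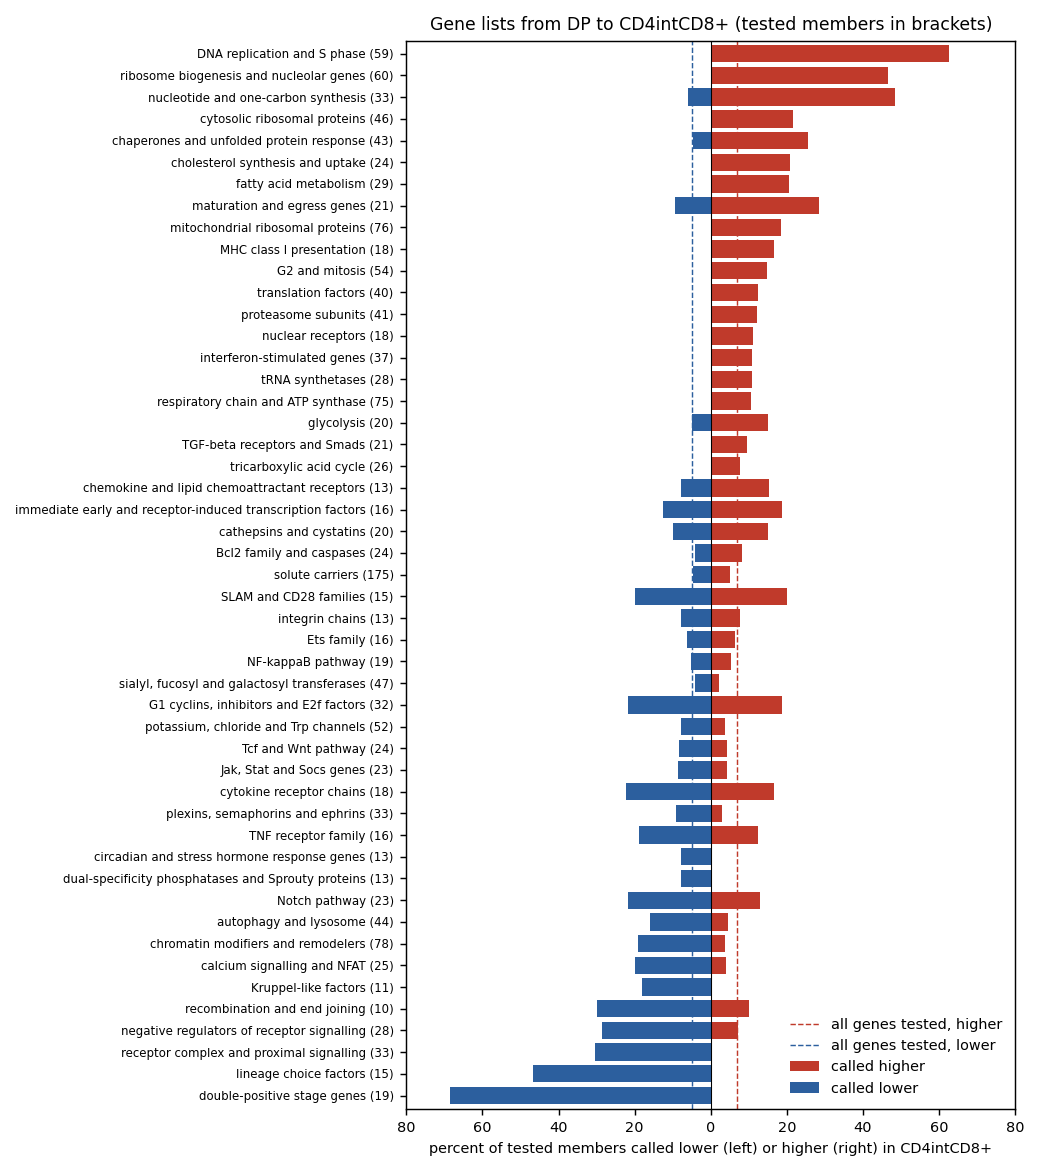
Percent of the tested members of each gene list called lower (left, blue) or higher (right, red) in CD4intCD8+, for all but 1 of the lists with at least 10 tested members, ordered by the difference. The dashed lines mark 4.84% and 6.86%, the shares of all genes tested. The longest bars are DNA replication on the right and the double-positive stage genes on the left. The lists were chosen with earlier results of these data known.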

How the data were processed

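Thymocyte RNA was measured on 6 single-colour arrays, of which the 4 DP and CD4intCD8+ arrays enter the comparison and the 2 CD8 single-positive arrays help to estimate the spread. The deposited table holds linear intensity values, of which 9720 are below 0, and the arrays were alike in scale. The labels do not give how the values were summarised, corrected for background or scaled. Of 45037 probes that are not controls, 34945 had 1 gene symbol, 932 several and 9160 none in the platform annotation. Negative values were raised to 0 and analysed as log2(intensity + 5.84), the pseudocount being the 10th percentile of positive values. The probe with the highest mean stood for each of 18193 genes, and the 7277 genes with a mean log2 level under the 40th percentile (5.19) were left out. limma 3.58.1 in R 4.3.3 (lmFit, eBayes with an intensity trend) was fitted on stage over 6 arrays, with 3 residual and 6.05 prior degrees of freedom and a median SE of 0.17, and p-values were adjusted over all 10916 genes by the Benjamini-Hochberg method. The number of arrays limits the precision. The fit was tested on simulated data. Same-numbered arrays deviated together over genes, with correlations of 0.26, 0.21 and 0.30 for the 3 pairs of stages, so the numbers in the titles were taken to pair the arrays. The pairing enters only the pair differences and the fit with the replicate block, and the main SEs and adjusted p-values ignore it. Named genes are the 20 largest rises and falls, up to 5 called members of each of 67 gene lists with the largest change, and a set of anchors; others are marked. The members and lists were chosen with earlier results of these data known. Promoters are RefSeq's for GRCm38.p6, a build that was used for sequence only. The alternatives changed the pseudocount, filter, probe rule, variance trend, normalization, arrays fitted, replicate block and actin ratio covariate, and left out each array.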

Additional observations from a re-analysis of the deposited data

How the results depend on the processing

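The 1277 genes called from DP to CD4intCD8+ were 764 when a gene's probes were averaged, 801 without the variance trend, 2562 with the replicate number as a block and 407 under the actin covariate. Leaving out each array in turn gave 187 to 1399. The other settings, a pseudocount of 1 or 32, the 60th-percentile filter or no filter, quantile normalization and the 4 arrays alone, gave 1036 to 1273. The 301 genes changed at least 2-fold were 153 with a pseudocount of 32, and 137 to 545 with 1 array left out. With probes averaged, Jund changed by 0.023 and Psma1 by -0.16, in each case against the direction on the brighter probe, and neither was called (adjusted p = 0.950 and 0.708). The replicate block ended no call of a named gene and gave 5 more. Of the 248 named genes tested (239 with probes averaged) 167 lost their call without DP replicate 2, 136 without DP replicate 1, 124 with the actin covariate, 89 without CD4intCD8+ replicate 2, 67 with probes averaged, 62 without the trend and 34 without CD4intCD8+ replicate 1. Without 1 array a stage has a single sample, which is assumed to vary like the other groups. The cause of these differences was not tested. Genes near background are limited by the arrays' signal, since a change there depends on the pseudocount.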

Other observations

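The filter on dim genes used the mean over all 6 arrays, so that a gene bright in 1 stage could fall under it. In the limma fit of all 18193 genes, which called 1036 (5.69%), 49 genes under the filter were called, 26 higher and 23 lower in CD4intCD8+. Those named here were chosen after their values were seen. Plxnd1, the semaphorin receptor that guides selected thymocytes to the medulla, was 219 and 171 on the DP arrays and 15.9 and 15.2 on the CD4intCD8+ arrays, a change of -3.22 (adjusted p = 0.00134). Both CD4intCD8+ arrays were far below both DP arrays. Dhrs3, a retinaldehyde reductase, was 84.4 and 124 in DP and 5.97 and 10.5 in CD4intCD8+, a change of -2.96 (adjusted p = 0.00194). Tnfsf11, which encodes RANKL, the ligand by which mature thymocytes act on medullary epithelium, was 11.5 and 8.53 in DP and 54.4 and 44.4 in CD4intCD8+, a change of 1.80 (adjusted p = 0.00711). Crtam, a surface receptor of activated CD8 T cells, was 6.90 and -3.29 in DP and 41.4 and 19.7 in CD4intCD8+, a change of 2.01 (adjusted p = 0.0208) that starts at background. The sizes of these changes depend on the pseudocount.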
